A study of Mus musculus with 4 samples.

Results

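Alveolar type 1 (AT1) cells were followed through 8 of their genes, Ager, Hopx, Aqp5, Pdpn, Rtkn2, Akap5, Clic5 and Lmo7, in RNA of endothelial cells (ECs) taken from mouse lungs. The genes were picked by symbol as known AT1 genes from the 24063 gene symbols in the tables, and all 8 passed the filter on low counts that left 16208 genes for testing. The ECs came from C57BL6J mice, 8 weeks old and described as male, and were collected either after a sham operation or 7 days after unilateral pneumonectomy (PNX), the removal of the left lung. There were 2 sham and 2 post-PNX libraries, each made from the pooled cells of 2 mice, and the labels name no other treatment or allele in either group. Lung tissue was digested with collagenase and cells were held on beads by an antibody to CD31, a surface protein of ECs, so AT1 RNA in these libraries is RNA of another cell type carried with the selected cells. The comparison of post-PNX with sham libraries is therefore read as one of epithelial RNA in the selected fraction and not of the lung as a whole. Whether ECs or other cells also gave RNA of these 8 genes was not tested. In such bulk samples, fewer cells of a type and less RNA per cell cannot be told apart.

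AT1 cells are the broad, thin cells that cover most of the alveolar surface and share a basement membrane with capillary ECs, the barrier through which gas diffuses. They arise from, and can be replaced by, cuboidal alveolar type 2 (AT2) cells, which make surfactant. After loss of lung tissue the remaining lung grows, and AT1 cells are formed anew from AT2 cells in that growth. Several of the genes that mark AT1 cells are also used elsewhere, such as Pdpn in lymphatic ECs, mesothelium and activated fibroblasts.

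Counts on 1 transcript per gene came to between 41367438 and 50952879 per library. Replicates of a group lay close together, with a mean chi-square per gene of 1.74 between the sham libraries and 1.51 between the post-PNX libraries, against 128 between the first sham and the first post-PNX library. Counting noise alone would give a mean of about 1. The EC markers were high in all 4 libraries, with 374 ± 1.12 (SD, n = 2) FPKM of Pecam1, which encodes CD31, in sham ECs. FPKM, the number of reads relative to the length of the transcript and the size of the library, is used here wherever levels of different genes are compared. The highest levels were epithelial, with 4231 ± 29.4 FPKM of Scgb1a1, of airway club cells, and 2893 ± 5.12 FPKM of Sftpc, of AT2 cells, in sham libraries (SD, n = 2). These were rank 1 and rank 2 of all genes, and Pecam1 was at rank 58. No library had a count on any of the 44 chromosome Y genes listed, and Xist, the RNA of the inactive X chromosome (picked after its values were seen), was at 31872 to 33792 normalized counts. This goes against the label of male mice in all 4 libraries.

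The stretch before a transcription start is shown for 3 of the genes, chosen because it is free of annotated exons and because these genes behaved differently, Hopx falling most of the 3, Clic5 least and Pdpn rising. RefSeq windows of 250 bases before a start were at hand for 7 of the 8 genes, in 9 windows. They were searched on both strands for GGAATG, the core bound by TEAD factors, CTTGAG, a core bound by NKX2-1, and GGGCGG, the GC box, none of which overlaps another. Capitals mark each match, and the sequences are printed 5′ to 3′ on the strand of the gene, with coordinates of GRCm38.p6 (mm10).
Hopx, chr5:77115124-77115373, minus strand: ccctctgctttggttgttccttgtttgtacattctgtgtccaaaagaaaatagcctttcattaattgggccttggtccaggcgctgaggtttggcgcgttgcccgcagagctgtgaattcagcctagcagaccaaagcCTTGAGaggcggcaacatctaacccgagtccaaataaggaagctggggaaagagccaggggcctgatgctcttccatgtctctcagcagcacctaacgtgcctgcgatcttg
Clic5, chr17:44188322-44188571, plus strand: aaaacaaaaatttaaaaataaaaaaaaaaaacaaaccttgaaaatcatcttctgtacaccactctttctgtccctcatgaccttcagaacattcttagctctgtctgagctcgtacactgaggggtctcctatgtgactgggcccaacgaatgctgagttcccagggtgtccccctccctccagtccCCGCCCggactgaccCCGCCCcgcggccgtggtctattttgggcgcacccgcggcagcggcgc
Pdpn, chr4:143299565-143299814, minus strand: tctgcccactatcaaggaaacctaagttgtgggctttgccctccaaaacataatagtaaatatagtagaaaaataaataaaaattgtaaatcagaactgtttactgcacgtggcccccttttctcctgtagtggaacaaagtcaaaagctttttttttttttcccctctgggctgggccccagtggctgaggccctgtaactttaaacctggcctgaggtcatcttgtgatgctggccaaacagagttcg
The Clic5 window lies inside the annotated span of the gene, before a start within it, and the other windows shown lie before the outermost start. The Hopx window held 1 NKX2-1 core, 112 bases before the start. The Clic5 window held 2 GC boxes on the opposite strand, the first of them 63 bases before the start, and the Pdpn window held none of the 3 motifs. Over the 9 windows, GGAATG was found in 0, CTTGAG in 1 and GGGCGG in 4, against 12.6%, 13.3% and 32.7% of 32851 mouse windows of the same length. GC content was 52.4% in the Hopx window, 52.8% in the Clic5 window and 43.2% in the Pdpn window, and the median of all windows was 52.4%. These matches describe letters in a window and are not evidence of binding.

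After PNX, 7 of the 8 genes were lower and 1, Pdpn, was higher at an adjusted p under 0.01. The test was the quasi-likelihood F test of edgeR, its p adjusted over all genes tested by the Benjamini-Hochberg method, and this value is called the edgeR adjusted p from here on. Replicates were so close that 27.8% of all genes tested were lower and 29.3% higher by this rule, 57.1% in all, and the count of 7 lower and 1 higher is read beside these shares. With the further condition of a log2 fold change beyond 1, 0 of the 8 were called by edgeR, against 7.56% of all genes. All 8 had an unadjusted p under 0.05 in edgeR, as had 68.2% of all genes tested. DESeq2's test called 0 of the 8 past both thresholds, against 5.83% of its 17349 genes, and 8 past the adjusted p alone, against 37.6%. The median log2 fold change of the 8 was -0.42, and that of all genes tested was 0.00. For each of the 8, both post-PNX libraries lay on the same side of both sham libraries, which was so for 81.2% of all genes tested. Together they took 0.327% and 0.328% of a sham library and 0.243% and 0.244% of a post-PNX library.

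**Figure D1:**
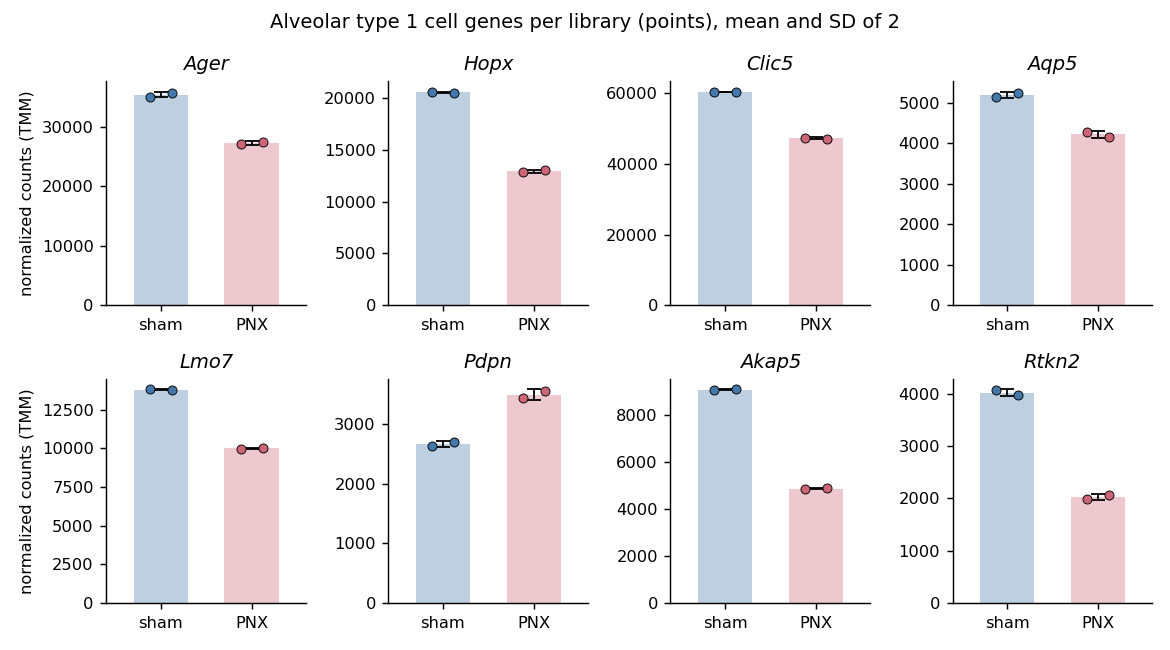
Normalized counts (vertical axes, from 0, TMM scaling) of the 8 AT1 genes in sham and post-PNX (PNX) ECs. Points are libraries, bars are means and error bars are SD of 2 libraries. In 7 panels both post-PNX points lie below both sham points, and in the panel of Pdpn they lie above.

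These directions are relative to the bulk of genes, since normalized counts are counts scaled by edgeR's TMM method, which assumes that most genes do not change. Markers of several cell types also differed between the groups, so the fits were repeated with libraries scaled to 12 endothelial genes and to 15 pan-epithelial genes. These scalings shifted the median of all genes tested from 0.00 to 0.28 and to 0.42 on the log2 scale. Under endothelial scaling 6 of the 8 AT1 genes were lower and 1 higher at an edgeR adjusted p under 0.01, with a median log2 fold change of -0.15, while of all genes 8.01% were lower and 60.8% higher. Under pan-epithelial scaling 3 were lower and 3 higher and the median was -0.0014, while of all genes 4.2% were lower and 74.3% higher. Hopx, Akap5 and Rtkn2 were lower under all 3 scalings, and so was Pdpn higher, though the upward shift of all genes could not have turned a rise. Aqp5 and Clic5 turned from lower to higher on the pan-epithelial scale. Ager changed sign there but did not pass the test.

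Ager encodes RAGE, the receptor for advanced glycation end products, which lies on the basal membrane of AT1 cells, and spans chromosome 17 from 34597460 to 34600937. Its normalized counts were 35100 and 35769 in sham and 27029 and 27474 in post-PNX libraries. The post-PNX level was 76.9% of the sham level, with no overlap of the groups. On the TMM scale Ager fell by a log2 fold change of -0.38 (standard error 0.018, edgeR adjusted p = 9.5e-28), and on the pan-epithelial scale the value was 0.04 (edgeR adjusted p = 0.0238). Per length it was the highest of the 8, with 304 ± 4.17 FPKM in sham and 235 ± 2.30 FPKM in post-PNX ECs (SD, n = 2), rank 88 and rank 150 of all genes. The gene has 7 annotated transcripts whose counts differed by 0.354% at most, since a read over several transcripts was counted for each, so its membrane and soluble isoforms cannot be told apart. Its FPKM depends on the transcript chosen, with means from 304 to 361 in sham ECs, and the transcript used here had the lowest.

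Pdpn encodes podoplanin, a mucin-like glycoprotein of the apical AT1 membrane, and spans chromosome 4 from 143267409 to 143299564. Sham libraries had 2636 and 2700 normalized counts and post-PNX libraries 3438 and 3562. It was the only one of the 8 genes with both post-PNX libraries above both sham libraries, at 131% of the sham level. The log2 fold change was 0.39 (standard error 0.032, edgeR adjusted p = 6.3e-17) on the TMM scale, 0.67 on the endothelial and 0.81 on the pan-epithelial scale. In all genes tested, 83.7% had a lower log2 fold change than Pdpn. The level per length went from 19.7 ± 0.34 to 26.0 ± 0.60 FPKM (SD, n = 2), so that Pdpn, below Lmo7 in sham ECs, stood above it after PNX.

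Markers of mesothelium, fibroblasts and lymphatic ECs, which also make podoplanin, were counted beside it. Of 6 mesothelial genes tested, 6 were higher and 0 lower (edgeR adjusted p under 0.01), with a median log2 fold change of 1.06. Msln, which encodes mesothelin, went from 2220 and 2245 to 8804 and 8684 normalized counts, and Wt1, a transcription factor of mesothelium, rose with a log2 fold change of 2.68. Upk3b, a uroplakin of mesothelium, had 1.08. The summed mesothelial counts per library were 7598 and 7740 in sham and 19662 and 19779 after PNX, with no gene of the list at 0. Of 9 fibroblast genes 6 were higher and 2 lower (median 2.08), among them Lum, Col1a1 and Col3a1, of collagen fibres, with log2 fold changes of 4.26, 2.34 and 2.27 and Inmt, a methyltransferase, with -1.04. The fibroblast sums lay from 150603 to 151407 in sham and from 286144 to 286976 after PNX. Of 6 lymphatic endothelial genes tested 2 were higher, 1 was lower and 3 did not pass the test, with a median of 0.00 on the TMM scale. Prox1, the defining transcription factor of lymphatic ECs, had a log2 fold change of 0.43, whereas Lyve1 had -1.14 and Flt4 -0.02 (edgeR adjusted p = 0.342). The part of these cells in the Pdpn counts was not tested.

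Clic5 encodes chloride intracellular channel protein 5, which links membranes to the actin cortex through ezrin, and spans chromosome 17 from 44134762 to 44280169. It had the most counts of the 8 genes, 60475 and 60334 normalized counts in sham and 47472 and 47071 after PNX. The groups lay far apart beside the gap between replicates, and the level was 78.3% of sham. Clic5 fell by a log2 fold change of -0.35 (standard error 0.016, edgeR adjusted p = 4.1e-28) on the TMM scale, which became 0.07 (edgeR adjusted p = 1.6e-04) on the pan-epithelial scale.

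Aqp5 encodes aquaporin 5, the water channel of the apical AT1 membrane that is also made by airway gland cells, on chromosome 15 from 99591028 to 99594829. Its 5153 and 5256 normalized counts in sham compared with 4291 and 4164 after PNX. This was the smallest of the 7 falls, to 81.2% of sham. The log2 fold change was -0.30 (standard error 0.027, edgeR adjusted p = 6.6e-15). The call was lost or turned with the scaling, at -0.02 (edgeR adjusted p = 0.488) on the endothelial scale and 0.12 (edgeR adjusted p = 7.1e-05) on the pan-epithelial scale. A lncRNA, Gm34765, overlaps the gene in the annotation and was not counted in the tables.

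Hopx encodes a small homeodomain protein that binds no DNA itself and is an early marker of AT1 cells, on chromosome 5 from 77086986 to 77115123. Sham libraries held 20592 and 20520 normalized counts and post-PNX libraries 12834 and 13045. Its level after PNX was 62.9% of sham. The log2 fold change was -0.67 (standard error 0.020, edgeR adjusted p = 2.2e-38), and 5.14% of all genes tested had a lower one. The value was -0.39 on the endothelial and -0.25 on the pan-epithelial scale.

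Rtkn2 encodes rhotekin 2, a protein of AT1 cells that is also made by lymphocytes, and spans chromosome 10 from 67979566 to 68058429. It had 4062 and 3968 normalized counts in sham and 1978 and 2059 after PNX. Of the 8 genes it fell most, to 50.3% of sham, with a log2 fold change of -0.99 (standard error 0.033, edgeR adjusted p = 9.7e-36), just short of the 2-fold threshold. Without the second sham or the second post-PNX library it was -1.01 or -1.02 and past that threshold. Only 1.92% of all genes tested had a lower log2 fold change. Of 8 T cell genes tested, 0 were higher and 5 lower. Their summed counts were 2132 and 2249 per sham library and 1499 and 1508 per post-PNX library, with no gene of the list at 0. Cd8a and Cd4, which mark T cell classes, had log2 fold changes of -1.08 and -1.01, Cd3g, of the T cell receptor complex, had -0.77, and Foxp3, the factor of regulatory T cells, had 0.11 (edgeR adjusted p = 0.194). The part of T cells in the Rtkn2 counts was not tested.

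Akap5 encodes an anchoring protein that holds protein kinase A, calcineurin and receptors at the membrane, and spans chromosome 12 from 76324617 to 76334517. It was at 9085 and 9101 normalized counts in sham and 4846 and 4886 after PNX. The replicates were nearly equal, and the level fell to 53.5% of sham. The log2 fold change was -0.90 (standard error 0.024, edgeR adjusted p = 1.4e-40), -0.63 on the endothelial and -0.48 on the pan-epithelial scale.

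Lmo7 encodes a LIM domain protein of cell junctions and actin, on chromosome 14 from 101729928 to 101934708. Its normalized counts were 13803 and 13792 in sham and 9963 and 10009 after PNX. This was a fall to 72.4% of sham, a log2 fold change of -0.47 (standard error 0.021, edgeR adjusted p = 5.4e-29). On the pan-epithelial scale it was -0.05 (edgeR adjusted p = 0.0391). A pseudogene, Gm52170, overlaps Lmo7 in the annotation and was not counted in the tables.

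Ordered by level per length in sham ECs, the genes ran Ager, Hopx at 221 ± 0.46 FPKM, Clic5 at 140 ± 0.18, Aqp5 at 45.6 ± 0.65, Lmo7 at 30.7 ± 0.0051, Pdpn, Akap5 at 18.5 ± 0.030 and Rtkn2 at 13.9 ± 0.22 FPKM (SD, n = 2). Neighbours in this order were separated in both libraries, the closest being Pdpn with 19.5 and 20.0 FPKM and Akap5 with 18.46 and 18.50 FPKM. After PNX the order changed at 1 place, where Pdpn passed Lmo7 at 22.4 ± 0.033 FPKM (SD, n = 2). Akap5 and Rtkn2 moved furthest down among all genes, from rank 2878 to 5308 and from rank 3848 to 6814. Ager stood close to the ECs' own genes in these libraries, at 81.4 FPKM per 100 FPKM of Pecam1 in sham and 63.0 after PNX.

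**Figure D2:**
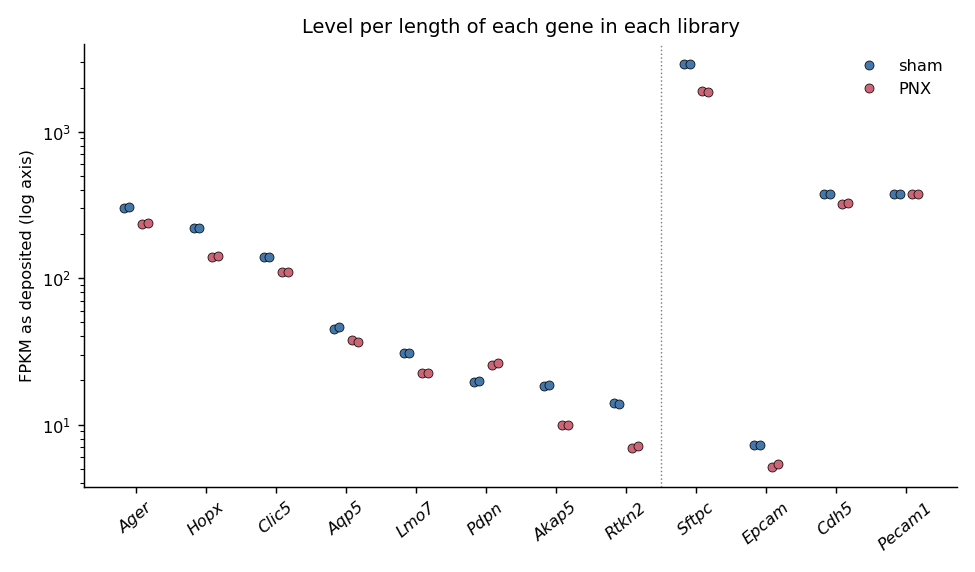
FPKM as deposited (log axis) of the 8 AT1 genes and, right of the dotted line, of Sftpc (AT2), Epcam (epithelium), Cdh5 and Pecam1 (ECs). Each point is 1 library and there are 2 per group. Ager lies near Cdh5 and Pecam1, and Pdpn is the only AT1 gene whose post-PNX points lie above its sham points.

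Set against Ager in the same library, the other genes did not keep one proportion, a ratio that no scaling of libraries can alter. Per 100 FPKM of Ager, Clic5 was at 46.4 and 45.5 FPKM in sham and 47.3 and 46.2 after PNX, and its groups overlapped. Hopx went from 73.4 and 71.7 to 59.4 in both libraries. Akap5 went from 6.13 and 6.02 to 4.24 and 4.21 and Rtkn2 from 4.66 and 4.46 to 2.94 and 3.02. Lmo7 moved less, from 10.2 and 9.99 to 9.55 and 9.44. Aqp5 went the other way, from 14.97 and 14.99 to 16.2 and 15.5, and Pdpn furthest, from 6.46 and 6.49 to 10.9 and 11.2. Of these ratios only that of Clic5 overlapped between the groups. On normalized counts the groups did not overlap for 81.2% of all genes tested, and the share for ratios to Ager was not counted. Those of Hopx, Akap5, Rtkn2 and Lmo7 were lower after PNX in both libraries, and those of Aqp5 and Pdpn higher.

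**Figure D3:**
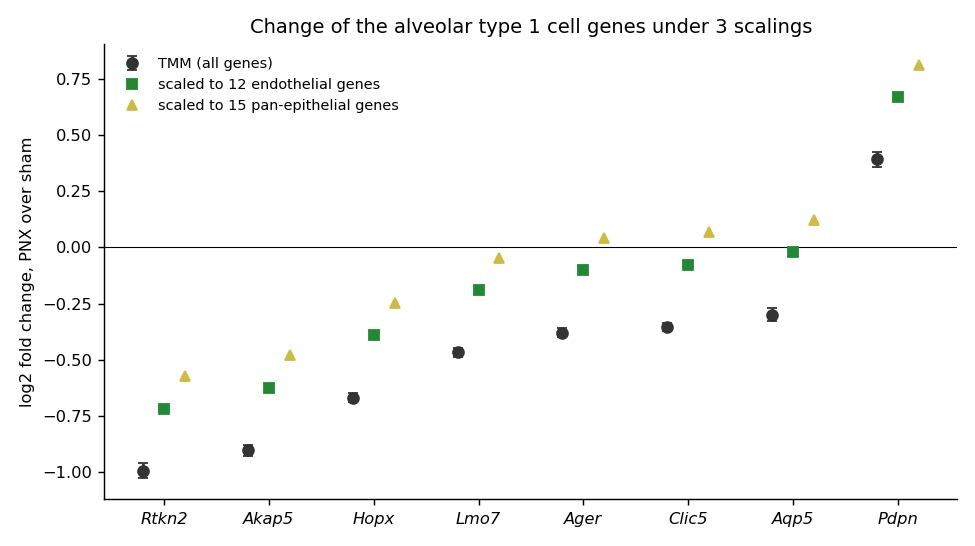
Log2 fold change (post-PNX over sham) of the 8 AT1 genes, ordered by value, with libraries scaled by TMM (circles, error bars are standard errors), to 12 endothelial genes (squares) or to 15 pan-epithelial genes (triangles). Scaling moves all genes up together. Ager, Clic5 and Aqp5 pass 0 on the pan-epithelial scale, and Rtkn2, Akap5, Hopx and Lmo7 lie below 0 on all 3 scales.

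Of 18 further genes known from AT1 cells, 14 were lower and 3 higher at an edgeR adjusted p under 0.01, with a median log2 fold change of -0.35, which became 0.07 under pan-epithelial scaling. Emp2, a membrane protein dense in AT1 cells, had 78729 and 79851 normalized counts in sham and 55104 and 55098 after PNX. Sec14l3, a lipid binding protein, and Pxdc1 had log2 fold changes of -0.79 and -0.84. Cyp2b10, a cytochrome P450, had -1.09 and was the 1 gene of the list past both thresholds. The counts of the 18 genes summed to 72.5% of sham after PNX, and those of the 8 genes above to 74.1%.

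Epithelium in general was lower on the TMM scale. All 14 AT2 genes tested were lower and 0 higher (edgeR adjusted p under 0.01), with a median of -0.47. Sftpc, the surfactant protein that defines AT2 cells, went from 171272 and 170757 to 111404 and 110651 normalized counts, a log2 fold change of -0.62. Sftpa1 and Lamp3, also of surfactant and its lamellar bodies, had -0.71 and -0.66. Of 15 pan-epithelial genes 12 were lower and 1 higher, with a median of -0.48. Epcam, the adhesion molecule used to sort epithelium, had -0.48, and Cdh1, which encodes E-cadherin, had -0.25 on the TMM scale but 0.03 on the endothelial and 0.18 on the pan-epithelial scale. The transcription factors Foxa1, Ehf and Nkx2-1 had -1.02, -0.67 and -0.55, and Krt8, a keratin, had 0.11. The median of the 8 AT1 genes, -0.42, thus lay beside those of AT2 and pan-epithelial genes. Relative to Sftpc, whose own level fell, Ager went from 10.4 and 10.6 to 12.3 and 12.6 FPKM per 100 FPKM, Clic5 from 4.83 in both libraries to 5.83 and 5.82, and Rtkn2 from 0.484 and 0.475 to 0.363 and 0.380. Lmo7 per 100 FPKM of Epcam was at 423 and 421 in sham and 436 and 418 after PNX, so its groups overlapped there.

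Airway lists differed among themselves. Of 7 club cell genes 7 were lower, with a median log2 fold change of -1.01, led by Bpifa1 at -2.12 and Cyp2f2 at -1.25, with Scgb1a1, the secretoglobin that defines club cells, at -1.04. Of 7 ciliated cell genes 6 were lower and 1 higher, with a median of -0.88, and Foxj1, the master factor of motile cilia, had -0.90. Sntn and Dnah5, of cilia, had -1.20 and -1.18, and Tuba1a, a tubulin made by many cells, had 0.50. Of 5 basal cell genes 2 were higher and 2 lower, with a median of 0.02, and the keratins Krt14 and Krt5 had 3.55 and -2.46 at summed counts of the list of only 155 to 383 per library. Among endothelial genes 10 of 12 were lower and 1 higher, with a median of -0.29 that became 0.13 under pan-epithelial scaling. Eng and Flt1, receptors of TGF-β ligands and VEGF, had -0.54 and -0.53. All 8 general capillary genes were lower, with a median of -0.55, led by Edn1 at -1.24. Capillary genes were not lower throughout, since of 8 genes of aerocytes, the other capillary EC type, 4 were lower and 3 higher (median -0.12). Ednrb and Fibin had -0.58 and -0.53, and Car4 and Prx, the most abundant, 0.24 and 0.13. Pecam1 had a log2 fold change of -0.01 (edgeR adjusted p = 0.636), and Cdh5, which encodes VE-cadherin, had -0.22 on the TMM scale but 0.06 and 0.20 on the endothelial and pan-epithelial scales. The study checked the isolated cells by FACS for CD31, VE-cadherin and lack of CD45, whose gene Ptprc had a log2 fold change of 0.00 (edgeR adjusted p = 0.905). Ptprc alone does not describe the leukocyte RNA, since 5 of 8 T cell genes were lower, as given above. Of 6 macrophage genes tested 6 were higher and 0 lower (edgeR adjusted p under 0.01), with a median of 1.82. Among them C1qb and C1qc, of complement, had 2.98 and 2.96, and Mrc1 and Csf1r, the most abundant, 0.70 and 0.685. How the share of each cell type in the fraction bears on the AT1 genes was not tested.

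**Figure D4:**
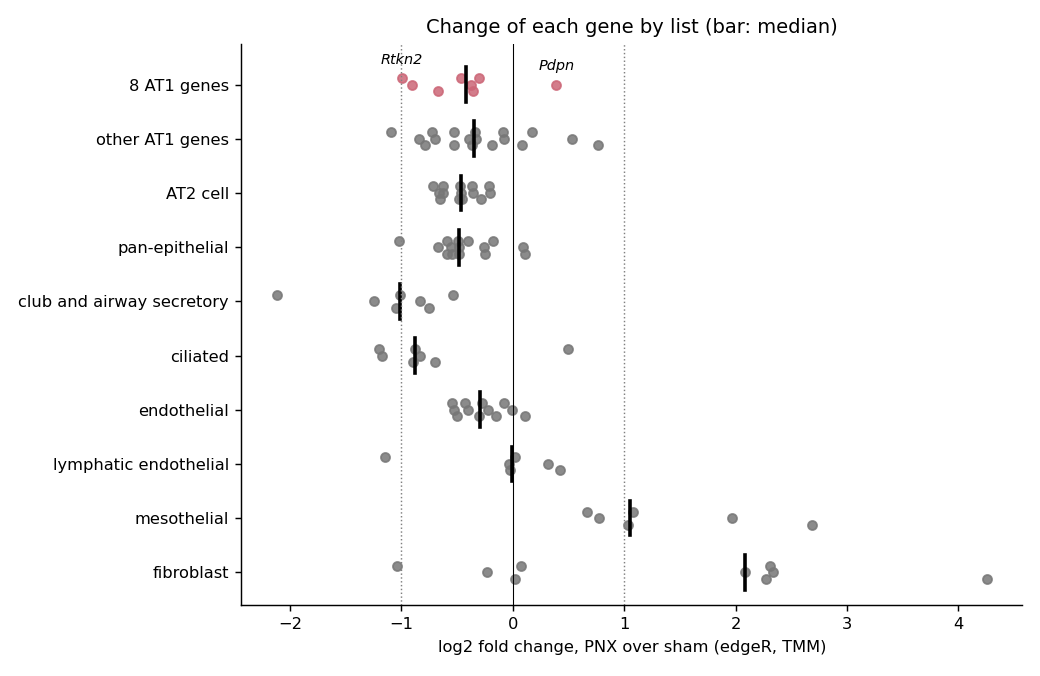
Log2 fold change (post-PNX over sham, TMM scale) of each gene, by list, with a bar at the median of the list and dotted lines at -1 and 1. The 8 AT1 genes (top, coloured) spread around -0.42, near AT2 and pan-epithelial genes, and Pdpn alone lies right of 0. Mesothelial genes all lie right of 0, and on the pan-epithelial scale the medians of the other AT1 and the endothelial genes turn positive.

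The partners of these proteins were counted from lists of their own. Of 13 genes of RAGE ligands and signalling 8 were higher and 0 lower, with a median of 0.16 beside the fall of Ager on the TMM scale. Hmgb2, a chromatin protein of the family of RAGE ligands, and S100a4, a ligand of the S100 family, had log2 fold changes of 1.59 and 1.16. Icam1, a target of RAGE signalling, had 0.04 (edgeR adjusted p = 0.042), and Adam10, which sheds RAGE, 0.21. Of 8 podoplanin partners 5 were higher and 2 lower (median 0.08), and Cd44 and Ezr, which encode a surface receptor and the actin linker ezrin, had 0.28 and 0.26, while Msn and Rhoa, the most abundant, had 0.05 and 0.11. Both lists hold genes that ECs and leukocytes also make.

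The family of Aqp5 had 12 members in the tables, of which 6 could be tested, with 3 lower and 1 higher and a median of -0.27 that turned to 0.01 and 0.15 under endothelial and pan-epithelial scaling. Aqp4, the water channel of the basolateral airway membrane, fell furthest at -1.54 from 141 and 122 normalized counts, Aqp9 had 0.64, and Aqp1, the endothelial water channel, had -0.23 on the TMM and 0.04 on the endothelial scale. Of 5 CLIC genes, Clic5 included, 4 were lower and 1 higher (median -0.35 on the TMM and 0.07 on the pan-epithelial scale). Clic6 and Clic3 had log2 fold changes of -0.98 and -0.58, and Clic4, abundant in ECs, had -0.16 on the TMM but 0.12 on the endothelial scale. Among 8 genes of alveolar ion transport 8 were lower (median -0.33, and 0.09 under pan-epithelial scaling), with Scnn1b, a subunit of the epithelial sodium channel, at -0.66 and Cftr, the chloride channel, at -0.59.

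Of 16 AKAP5 partners 5 were lower, 1 was higher and 10 did not pass the test, with a median of -0.03 on the TMM and 0.25 on the endothelial scale. Ppp3ca, the catalytic subunit of calcineurin, had a log2 fold change of -0.13 on the TMM and 0.15 on the endothelial scale. Nfatc3, a factor activated by calcineurin, had -0.33 on the TMM and 0.09 on the pan-epithelial scale. Of 8 LMO7 partners and LIM proteins 4 were lower and 2 higher (median -0.04 on the TMM and 0.23 on the endothelial scale), among them Lmna, which encodes lamin A/C, at 0.87 and Mkl2, an actin-regulated coactivator, at -0.44. Actn4, an actin crosslinker, had 0.03 and did not pass the test, and Limch1 had -0.23 on the TMM and 0.05 on the endothelial scale.

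The transcription regulators of AT1 identity, Hopx included, were also mixed. Of 14 tested 8 were lower and 5 higher, with a median of -0.19 that turned to 0.09 under endothelial scaling. Klf5, a Krüppel-like factor of lung epithelium, had a log2 fold change of -0.71, and Sox9, a factor of distal progenitors, had 1.10 from 48.0 and 43.8 to 92.4 and 106 normalized counts. Id3, an inhibitor of helix-loop-helix factors that ECs also make, had -0.01 (edgeR adjusted p = 0.714).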

How the data were processed

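RNA of CD31-selected lung ECs was sequenced as paired ends from a stranded mRNA kit in 2 sham and 2 post-PNX libraries. The submitters' processing notes name STAR and mm10; the counting program is not given in the sources used here. For each library the authors deposited whole-number counts on RefSeq transcripts, without normalization. Beside them the authors deposited FPKM values, used here to compare levels between genes, and TPM values, which were not used. Reads shared by transcripts of 1 gene entered the count of every one of them, so the transcript with the most counts stood for its gene. Polyadenylated RNA only was measured, and counts of overlapping or near-identical genes could be split.

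The tests were run with edgeR 4.0.16 under R 4.3.3 (filterByExpr, TMM factors, quasi-likelihood F test without covariates) over all 4 libraries, with Benjamini-Hochberg adjustment over 16208 genes. The thresholds, an adjusted p under 0.01 and a log2 fold change of over 1, were those of the study's methods. The standard error is the log2 fold change divided by the square root of F. The steps were tested on simulated counts in which few genes changed, so that test does not bear on the choice of scaling. No source says whether the replicates differ in more than the mice pooled, and their spread was not far above counting noise. The p-values therefore measure the spread between these libraries and not that between single mice.

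The 8 genes and all other lists were chosen with earlier results of these data known. Of each other list the text names the 2 genes with the most counts, the 2 with the largest change and the defining marker, apart from a few genes and 1 list that are not reported here. Alternatives were DESeq2 1.42.0, scaling to endothelial or pan-epithelial genes, to DESeq2's size factors or to library size alone, no filter, a mean of at least 50 counts, glmTreat, counts summed over transcripts, an adjusted p under 0.05, a replicate block and each library left out. Coordinates are those of RefSeq on GRCm38.p6, of which mm10 is the same assembly, and promoter windows are from the same source.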

Additional observations from a re-analysis of the deposited data

How the results depend on the processing

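The median log2 fold change of the 8 AT1 genes, -0.42, was -0.15 with endothelial and -0.0014 with pan-epithelial scaling, and the numbers at an adjusted p under 0.01 became 3 lower and 3 higher with pan-epithelial scaling (edgeR). The log2 fold changes of Ager, Aqp5 and Clic5 turned to 0.0424, 0.1225 and 0.0676 with pan-epithelial scaling. Of these Ager did not pass the adjusted p there, and neither did Lmo7 at -0.0453, nor Aqp5 at -0.0218 with endothelial scaling. With each library left out in turn, the median ran from -0.4295 to -0.4134, and the number of genes lower past both thresholds from 0 to 1, the 1 being Rtkn2 without the second sham or the second post-PNX library. The replicate numbers are shared between groups but come from different mice, and deviations of same-numbered libraries had a correlation of 0.031 over genes. With the replicate number as a block, 7 genes were lower and 1 higher at an adjusted p under 0.01, 0 were past both thresholds, the median was -0.4226, and no call of the 8 genes changed. The glmTreat test was read only for calls past both thresholds, of which it made 0. Of the remaining alternatives, none turned the direction of any of the 8 genes or moved it across the adjusted p threshold. Depth did not limit the 8 genes, each with at least 1848 counts in every library, but 2 libraries per group limit the estimate of spread, and isoforms cannot be separated.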

Other observations

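Genes of the transitional state between AT2 and AT1 cells moved against the AT1 genes. Of 12 tested, 9 were higher and 0 lower after PNX (edgeR adjusted p under 0.01), with a median log2 fold change of 0.37. Of all genes tested, 29.3% were higher and 27.8% lower by this rule. The median of the list was 0.64 under endothelial and 0.79 under pan-epithelial scaling. These scalings also raised the median of all genes, to 0.28 and 0.42, so they could not have turned the direction of a rise. Clu, which encodes clusterin, had 11471 and 11364 normalized counts in sham and 18854 and 18995 after PNX, a log2 fold change of 0.73. Areg, a ligand of the EGF receptor, and Ccnd1, which encodes cyclin D1, had 0.72 and 0.58. These genes are also made by cells other than epithelium, and their source in the fraction was not tested.

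Of 13 genes of the basement membrane that AT1 cells share with capillaries, 9 were higher and 4 lower, with a median of 0.52. With endothelial scaling 9 were higher and 0 lower (median 0.80), beside 60.8% higher and 8.01% lower of all genes tested. With pan-epithelial scaling 13 were higher and 0 lower (median 0.95), beside 74.3% and 4.2% of all genes. Both scalings raised all genes together, so these counts are read beside those shares. Col4a1 and Col4a2, the collagen chains found in all basement membranes, had log2 fold changes of 0.87 and 0.80, and Nid2 and Hspg2, which encode nidogen 2 and perlecan, had 1.03 and 0.89. Col4a3, a chain made by AT1 cells and chosen here after its values were seen, had -0.34 on the TMM, -0.06 on the endothelial and 0.08 on the pan-epithelial scale.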
